A study of Homo sapiens with 9 samples.

Results

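The 29 genes described here are targets of the transcription factor p53, chosen by symbol from what is known of p53 and each found on 1 of the 20323 gene rows of the deposited table. They were followed through 9 poly(A) RNA-seq libraries of HKC-8, a long-established line of human proximal tubule epithelium from the kidney. The libraries carry 3 labels with 3 replicates each. Those labelled Wnt1_KP6 came from cells that received a Wnt1 plasmid together with KP6, a short fragment of the kidney protein Klotho made as a peptide. Those labelled Wnt1 came from cells given the plasmid without KP6, and those labelled control from cells given the empty vector pcDNA3. Every group therefore received a plasmid, and all 9 libraries share batch label 1. The labels do not state the dose of KP6, the time of harvest, the passage or whether replicates were separate cultures; the spread behind each p-value is that between these libraries and may be technical. HKC-8 is a single line immortalised with an adenovirus and SV40 hybrid virus, and the SV40 large T antigen is known to bind p53; the part of this background in the values below was not tested. In bulk RNA, fewer cells expressing a gene and less RNA per cell cannot be told apart.

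p53 is a sequence-specific activator that is held low by the ubiquitin ligase MDM2 and accumulates after DNA damage and other stresses. It binds a response element made of a pair of decamers and switches on genes that stop the cell cycle, repair DNA, alter metabolism or start apoptosis, together with genes such as MDM2 that shut the response down. In kidney tubules, CDKN1A-dependent arrest and death receptor signalling are studied in acute injury and in its passage to chronic disease, where Wnt signalling is also active. Many p53 targets have promoters that other stress-responsive factors can use, so their RNA alone does not measure p53 activity.

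Some promoter sequence is shown first, as a description of the bases near the start of members whose RNA differed much or little between the groups. RefSeq promoter windows on GRCh38.p14, from 250 bases before to 50 bases after each transcript start, were matched for 22 of the 29 members, with 35 windows in all; GADD45A, PHLDA3, RRM2B, TNFRSF10A, TNFRSF10B, TNFRSF10D and TP53INP1 were not matched and were not searched. The full p53 response element was read as a pair of consensus decamers with a spacer of 0 to 13 bases and no mismatch allowed. Elements with mismatches or outside these windows were not searched, so a gene without a match may still carry one. The exact element lay in 0.0285% of all 35116 windows and in 1 member, DDB2, where it began 5 bases inside the transcript (chr11:47214979-47214999, plus strand, decamers in capitals).
DDB2: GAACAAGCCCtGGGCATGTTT
A single p53 decamer lay in 6.63% of windows and in 5 members, namely AEN, DDB2, FAS, FDXR and SESN1. AEN (chr15:88621240-88621339, plus strand) and FDXR (chr17:74872995-74873094, minus strand) carried the same decamer, in capitals. The RNA of AEN ranked among the members that differed most, and that of FDXR differed little. The bases around the shared decamer are not alike. In AEN those right after it match another decamer except at its last 2 positions, which the exact search did not count.
AEN: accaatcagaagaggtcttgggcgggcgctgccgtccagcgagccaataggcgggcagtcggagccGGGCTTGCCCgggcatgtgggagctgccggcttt
FDXR: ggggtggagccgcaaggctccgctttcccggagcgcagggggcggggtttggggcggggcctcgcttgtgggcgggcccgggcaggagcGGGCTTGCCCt
SFN had no p53 decamer in this window, and bases further from its start were not searched. Its window held TGANTCA, the core bound by AP-1, which was found on either strand in 7.71% of windows and in 4 members (FAS, MDM2, PERP and SFN). In SFN (chr1:26862959-26863148, plus strand) it began 170 bases before the start and is in capitals.
SFN: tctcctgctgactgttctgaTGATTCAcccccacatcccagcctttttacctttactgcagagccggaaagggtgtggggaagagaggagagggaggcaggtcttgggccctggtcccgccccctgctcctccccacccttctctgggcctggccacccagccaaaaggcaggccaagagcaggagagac
The palindrome TGACGTCA, bound by CREB and ATF family factors, lay in 1.85% of windows and in 2 members, EPHA2 (chr1:16156070-16156169, minus strand) and PPM1D (chr17:60600093-60600192, plus strand), where it is in capitals.
EPHA2: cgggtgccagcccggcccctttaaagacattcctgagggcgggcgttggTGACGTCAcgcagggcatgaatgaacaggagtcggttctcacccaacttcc
PPM1D: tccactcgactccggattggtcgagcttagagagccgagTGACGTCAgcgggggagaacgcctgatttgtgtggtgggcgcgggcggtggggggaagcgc
These matches describe letters in a short window and do not show binding. Their part in the RNA differences below was not tested.

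The libraries held between 21199078 and 27507623 estimated counts, over 14915 to 15225 genes. WNT1 itself had 1, 2 and 0 counts in the libraries labelled Wnt1_KP6 and 0 counts in every library labelled Wnt1 or control, so the plasmid label could not be checked and every direction below rests on the labels. The main axis of variation (38.13% of variance) set replicate 1 of all 3 groups, at 37.36 to 38.82, apart from the other 6 libraries, at -25.07 to -9.21. On the next axis (28.31% of variance) the replicate 1 libraries lay between -2.30 and 1.57, whereas replicates 2 and 3 lay at 31.75 and 31.84 with the Wnt1_KP6 label, at 7.61 and 8.11 with the Wnt1 label and at -37.67 and -38.82 with the control label. Mitochondrial transcripts made up 5.175% to 5.72% of counts in the replicate 1 libraries and 7.013% to 7.967% in the others. Most differences below are therefore also given within replicate 1 and as the mean within replicates 2 and 3. Of 17 kidney epithelial markers, 8 reached 1 CPM (counts scaled to the size of the library) in every library, among them KRT8, KRT18, EPCAM and PAX8 and the tubule brush border and adhesion genes GGT1 (122 to 173 CPM), MME (58.9 to 75.0 CPM) and CDH6 (39.1 to 117 CPM). The defining proximal tubule genes LRP2, CUBN, AQP1 and SLC34A1 stayed under 1 CPM. The 6 fibroblast markers summed to 15.94 to 22.92 CPM with the Wnt1_KP6 label, 14.76 to 20.61 CPM with the Wnt1 label and 21.08 to 36.86 CPM with the control label. Among 4 immune markers PTPRC and CD3E were at 0 and LYZ was at most 0.095 CPM, while CD68, which other cells also express, had 49.5, 29.2 and 26.1 CPM in replicates 1 to 3 labelled Wnt1_KP6, 50.6, 27.1 and 30.7 CPM labelled Wnt1, and 37.5, 38.2 and 50.49 CPM labelled control. Its part in the results was not tested. The 4 endothelial markers summed to at most 0.239 CPM.

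Against control, SFN was higher with both plasmid labels, by 1.46 ± 0.18 (log2, SE) in the libraries labelled Wnt1_KP6 and by 1.31 ± 0.18 in those labelled Wnt1, and the death receptor gene TNFRSF10A was higher by 0.67 ± 0.10 with the Wnt1_KP6 label. No member passed the test between the Wnt1_KP6 and Wnt1 labels. There, BTG2, CDKN1A, EPHA2, GADD45A, TNFRSF10B, TIGAR and AEN had more RNA in replicates 2 and 3 labelled Wnt1_KP6 than in those labelled Wnt1. Within replicate 1, BTG2 differed by 0.69 and TIGAR by 0.21 on the log2 scale, and the other genes just named by -0.32 to 0.02. For BTG2, TIGAR and TNFRSF10A every library labelled Wnt1_KP6 lay above every library labelled Wnt1, as for 2.87% of all genes. The test was edgeR's quasi-likelihood test on all 9 libraries, with Benjamini-Hochberg adjustment over 13153 genes and a threshold of 0.05; 28 of the 29 members passed its filter on low counts.

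TP53I11, a p53-inducible gene, was the member left out by the filter, with 6, 3 and 0 counts in replicates 1 to 3 labelled Wnt1_KP6, 12, 0 and 3 labelled Wnt1 and 2, 3 and 0 labelled control. Compared per transcript length, in the deposited FPKM (fragments scaled to transcript length and library size), the members' levels ran from SFN, at a mean of 156.8 FPKM over the 9 libraries, through GADD45A at 93.91, TNFRSF10B at 84.11 and EPHA2 at 64.2 FPKM, down to BTG2 at 1.024 FPKM. The median over the 28 tested members was 9.287 FPKM, against 10.36 FPKM over all tested genes, and 13 of the 28 lay above that gene median.

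Among genes of cell cycle arrest, SFN encodes 14-3-3 sigma, an epithelial protein that holds cyclin-dependent kinase complexes in the cytoplasm. SFN (chr1:26863138-26864457, plus strand, GRCh38) had 206, 323 and 295 CPM in replicates 1, 2 and 3 labelled Wnt1_KP6, 216, 270.0 and 257 CPM in those labelled Wnt1, and 105, 86.7 and 107 CPM in those labelled control. Every library of both plasmid labels lay above every control library, and the Wnt1_KP6 and Wnt1 values overlapped. The adjusted p of SFN was 0.0258 for Wnt1_KP6 against control and 0.0422 for Wnt1 against control. SFN was higher in 3 of 3 replicates in both: by 0.97 within replicate 1 and by 1.68 on average within replicates 2 and 3 for Wnt1_KP6 against control, and by 1.03 and 1.45 for Wnt1 against control. Between the Wnt1_KP6 and Wnt1 labels SFN differed by 0.15 ± 0.17, with an adjusted p of 1.0. The size of the SFN difference held when single libraries were left out (1.32 to 1.63 and 1.22 to 1.40), but the adjusted p passed 0.05 without control replicate 2 or 3 (0.227 and 0.113 for Wnt1_KP6, 0.325 and 0.178 for Wnt1 against control), without replicate 2 or 3 labelled Wnt1 (0.0575 and 0.0829; 0.244 and 0.314) and without replicate 2 or 3 labelled Wnt1_KP6 (0.158 and 0.126; 0.0677 and 0.128). For Wnt1 against control it also did so without Wnt1 replicate 1 (0.0683).

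**Figure D1:**
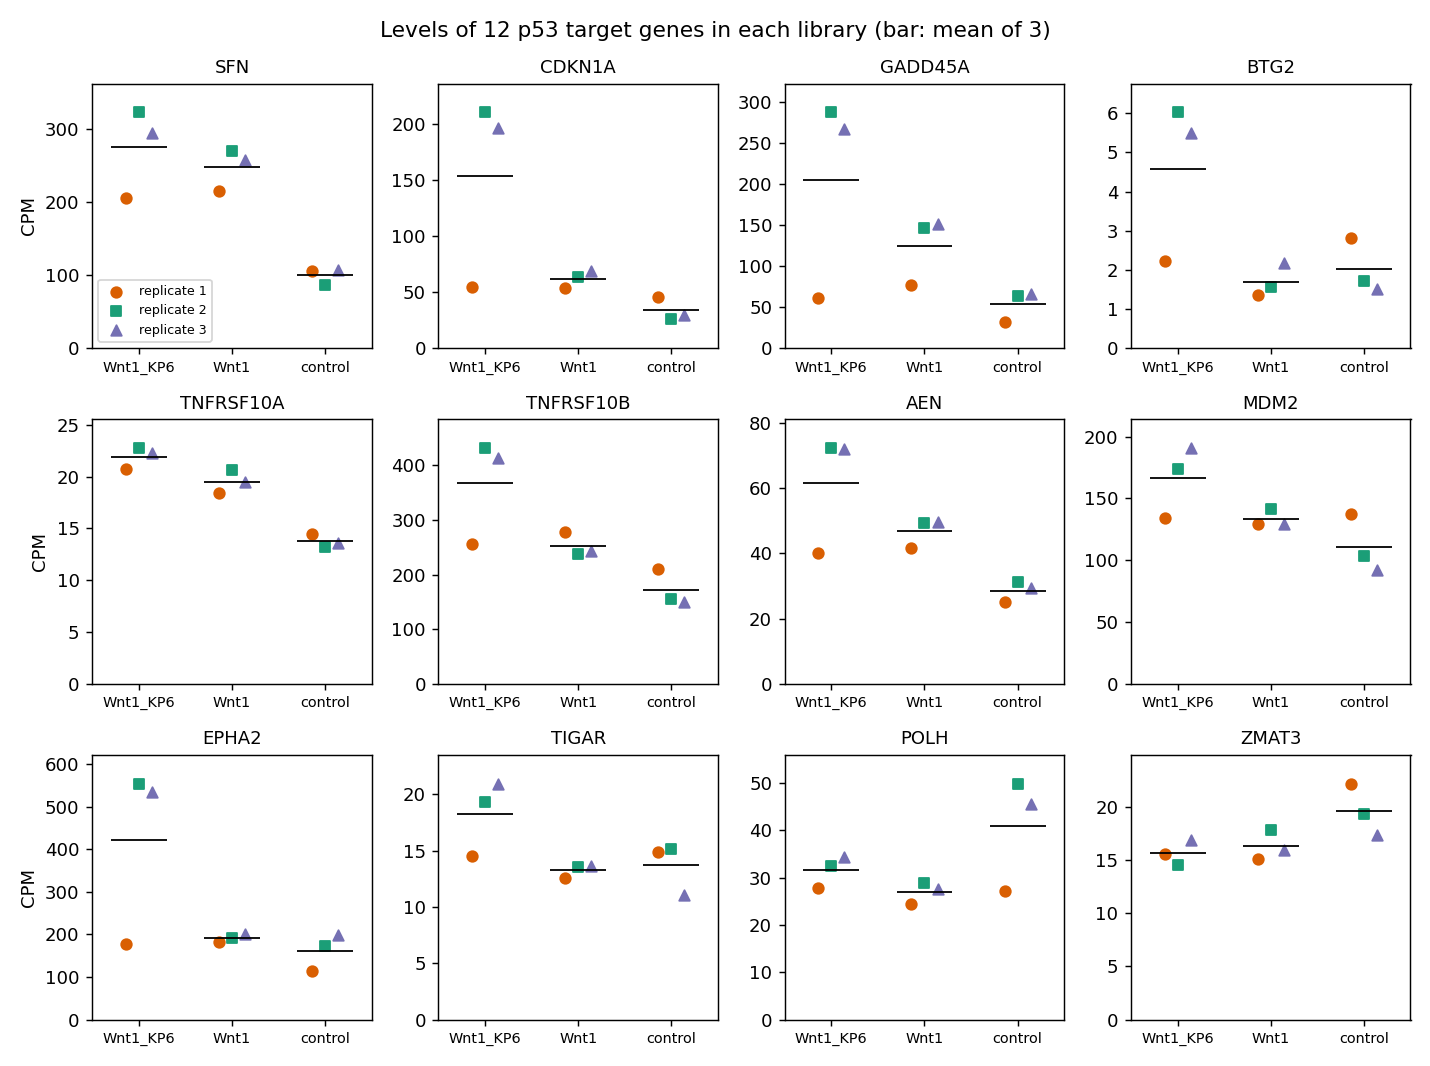
CPM (vertical axis of each panel, from 0) of 12 p53 target genes in each library, by label and replicate number; bars are means of 3. SFN and TNFRSF10A are above all control libraries with both plasmid labels, and CDKN1A, GADD45A, BTG2 and EPHA2 have replicates 2 and 3 labelled Wnt1_KP6 far above replicate 1.

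CDKN1A encodes p21, the cyclin-dependent kinase inhibitor through which p53 arrests cells in G1. Its level (chr6:36676460-36687339, plus strand) was 54.3, 211 and 197 CPM in replicates 1 to 3 labelled Wnt1_KP6, 53.7, 63.7 and 69.0 CPM labelled Wnt1, and 45.8, 26.0 and 29.1 CPM labelled control. Replicates 2 and 3 labelled Wnt1_KP6 stood far above the other 7 libraries, while replicate 1 labelled Wnt1_KP6 lay beside replicate 1 labelled Wnt1. For Wnt1_KP6 against Wnt1, CDKN1A differed by 1.31 ± 0.45 over all libraries (adjusted p 1.0), by 0.02 within replicate 1 and by 1.62 within replicates 2 and 3. For Wnt1_KP6 against control it differed by 2.19 ± 0.46 (adjusted p 0.0866), by 0.24 within replicate 1 and by 2.88 within replicates 2 and 3, with no overlap between the groups. For Wnt1 against control it differed by 0.88 ± 0.45 (adjusted p 0.511), again without overlap, by 0.23 and 1.27. Of its exon bases, 4.79% lie opposite the noncoding gene DINOL, and reads of the pair cannot be told apart without strand.

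GADD45A encodes a stress sensor that binds p21, PCNA and stress kinase activators. It had 61.4, 288 and 268 CPM labelled Wnt1_KP6, 76.5, 147 and 151 CPM labelled Wnt1, and 31.8, 63.3 and 66.2 CPM labelled control. Replicates 2 and 3 followed the order Wnt1_KP6, Wnt1, control from high to low, and replicate 1 was the lowest library in each group. GADD45A differed by 1.94 ± 0.56 for Wnt1_KP6 against control (adjusted p 0.159), by 0.72 ± 0.55 for Wnt1_KP6 against Wnt1 (adjusted p 1.0) and by 1.21 ± 0.55 for Wnt1 against control (adjusted p 0.456). Within replicate 1 these differences were 0.95, -0.32 and 1.26, and within replicates 2 and 3 they averaged 2.10, 0.90 and 1.20. With the replicate number as a block, the first of them passed the threshold (adjusted p 0.0366).

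BTG2, an antiproliferative cofactor of mRNA deadenylation, was the tested member with the lowest level. It had 2.23, 6.04 and 5.50 CPM labelled Wnt1_KP6, 1.35, 1.57 and 2.17 CPM labelled Wnt1, and 2.81, 1.72 and 1.502 CPM labelled control. All libraries labelled Wnt1_KP6 lay above those labelled Wnt1, replicate 1 by a narrow margin over the highest of them. BTG2 had the smallest p of all members for Wnt1_KP6 against Wnt1, at 1.43 ± 0.41 with an adjusted p of 1.0, and differed by 0.69 within replicate 1 and by 1.60 within replicates 2 and 3. CCNG2, an unconventional cyclin linked to arrest, had mean levels of 44.8, 48.8 and 47.6 CPM with the Wnt1_KP6, Wnt1 and control labels and passed the test in no comparison.

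The death receptors for the ligand TRAIL were next. TNFRSF10A (chr8:23190452-23225126, minus strand), which encodes the receptor DR4, had 20.7, 22.8 and 22.3 CPM labelled Wnt1_KP6, 18.5, 20.7 and 19.4 CPM labelled Wnt1, and 14.4, 13.2 and 13.6 CPM labelled control. Both plasmid labels were above control in every library, and the libraries within each group lay close together, replicate 1 included. TNFRSF10A differed by 0.67 ± 0.10 for Wnt1_KP6 against control (adjusted p 0.0383; 0.52 within replicate 1 and 0.75 within replicates 2 and 3) and by 0.50 ± 0.10 for Wnt1 against control (adjusted p 0.114; 0.35 and 0.58). For Wnt1_KP6 against Wnt1 it differed by 0.17 ± 0.10 (adjusted p 1.0), with the groups just apart. The call of TNFRSF10A was lost without control replicate 2 or 3 (adjusted p 0.276 and 0.139), Wnt1 replicate 2 or 3 (0.109 and 0.114) or Wnt1_KP6 replicate 2 or 3 (0.264 and 0.217), with differences of 0.64 to 0.71 over all libraries left out in turn, and with the deposited FPKM in limma (0.0847 and 0.082). Of its exon bases, 16.6% lie opposite other annotated genes, TNFRSF10A-AS1 among them.

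TNFRSF10B, which encodes the other signalling TRAIL receptor DR5, was the most abundant receptor of the group. It had 256, 432 and 413 CPM labelled Wnt1_KP6, 277, 238 and 243 CPM labelled Wnt1, and 211, 156 and 149 CPM labelled control. Both plasmid labels stood above all control libraries, and replicates 2 and 3 labelled Wnt1_KP6 stood above the rest. TNFRSF10B differed by 1.09 ± 0.21 for Wnt1_KP6 against control (adjusted p 0.0691), by 0.54 ± 0.21 for Wnt1_KP6 against Wnt1 (adjusted p 1.0) and by 0.56 ± 0.21 for Wnt1 against control (adjusted p 0.362). Its differences within replicate 1 were 0.28, -0.11 and 0.39, and within replicates 2 and 3 they averaged 1.47, 0.81 and 0.66.

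TNFRSF10D, a decoy receptor that binds TRAIL without a working death domain, had 50.6, 66.8 and 65.8 CPM labelled Wnt1_KP6, 50.5, 49.9 and 50.7 CPM labelled Wnt1, and 46.7, 63.4 and 55.1 CPM labelled control. The groups overlapped in all comparisons, and the largest of its fitted differences was 0.28 ± 0.14, for Wnt1_KP6 against Wnt1 (adjusted p 1.0; 0.01 within replicate 1 and 0.40 within replicates 2 and 3). FAS, the receptor of Fas ligand, averaged 21.4, 19.8 and 18.7 CPM with the Wnt1_KP6, Wnt1 and control labels, with SDs of 1.90, 3.35 and 6.68 CPM (n = 3 each). For Wnt1_KP6 against control FAS differed by -0.15 within replicate 1 and by 0.45 within replicates 2 and 3. The 3 TRAIL receptor genes are close relatives, and the deposited estimated counts share ambiguous reads among such genes.

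**Figure D2:**
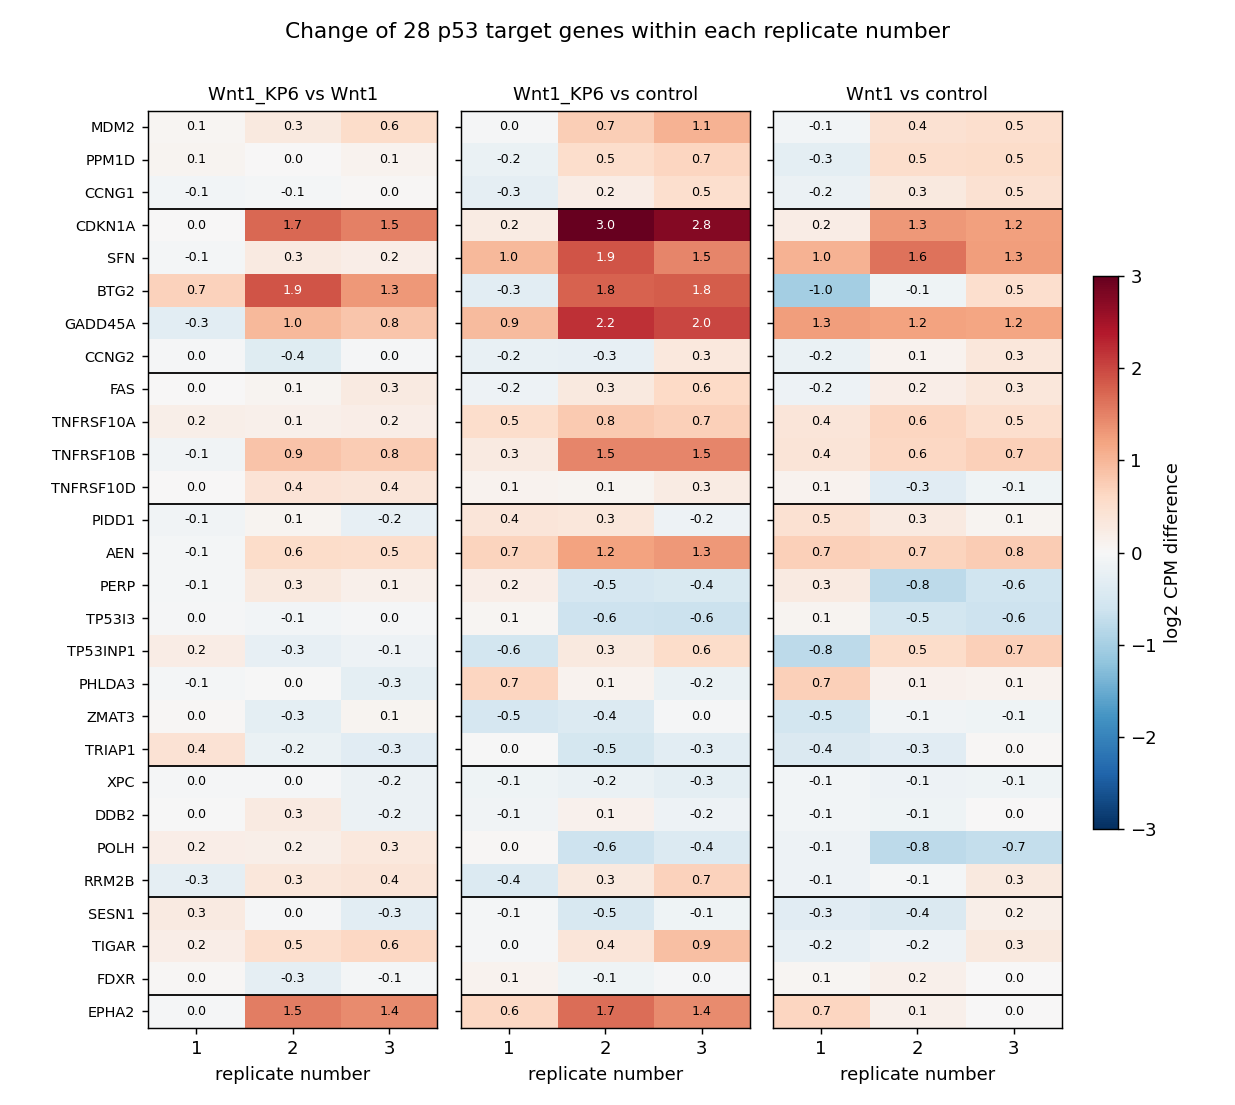
Difference in log2 CPM of 28 p53 target genes (rows, grouped by role) within replicate numbers 1, 2 and 3 (columns) for Wnt1_KP6 against Wnt1, Wnt1_KP6 against control and Wnt1 against control. CDKN1A differs by 0.02 within replicate 1 in the left panel, against an average of 1.62 within replicates 2 and 3, while SFN is above 0 in all columns of both comparisons with control.

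Of the feedback genes, MDM2 encodes the ubiquitin ligase that degrades p53. MDM2 had 134, 174 and 191 CPM labelled Wnt1_KP6, 129, 142 and 130 CPM labelled Wnt1, and 137, 104 and 92.1 CPM labelled control. Replicates 2 and 3 labelled Wnt1_KP6 were the highest libraries, but control replicate 1 lay among the libraries of the other labels, so all 3 groups overlapped in pairs. MDM2 differed by 0.58 ± 0.17 for Wnt1_KP6 against control (adjusted p 0.157), by 0.32 ± 0.17 for Wnt1_KP6 against Wnt1 (adjusted p 1.0) and by 0.27 ± 0.17 for Wnt1 against control (adjusted p 0.607). The differences were -0.03, 0.05 and -0.09 within replicate 1 and averaged 0.90, 0.43 and 0.47 within replicates 2 and 3. PPM1D, the WIP1 phosphatase that reverses p53 activation, averaged 27.2, 26.0 and 22.1 CPM with the Wnt1_KP6, Wnt1 and control labels (SD 2.11, 2.66 and 5.66, n = 3 each); its differences from control were -0.20 for Wnt1_KP6 and -0.29 for Wnt1 within replicate 1, and 0.59 and 0.54 within replicates 2 and 3. CCNG1, cyclin G1, which recruits a phosphatase to MDM2, averaged 107, 110 and 102 CPM in the same order of labels. For Wnt1_KP6 against control CCNG1 differed by -0.26 within replicate 1 and by 0.36 within replicates 2 and 3. Neither PPM1D nor CCNG1 passed the test in any comparison.

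Among the genes of apoptosis and survival, AEN, a p53-induced nuclease that digests DNA in apoptosis, stood out. AEN had 40.0, 72.3 and 72.0 CPM labelled Wnt1_KP6, 41.5, 49.3 and 49.7 CPM labelled Wnt1, and 25.1, 31.2 and 29.4 CPM labelled control. Every library of both plasmid labels lay above every control library, and replicate 1 labelled Wnt1_KP6 lay just below all those labelled Wnt1. AEN differed by 1.10 ± 0.21 for Wnt1_KP6 against control (adjusted p 0.0691), by 0.39 ± 0.21 for Wnt1_KP6 against Wnt1 (adjusted p 1.0) and by 0.71 ± 0.21 for Wnt1 against control (adjusted p 0.272). Wnt1 against control gave much the same size within replicate 1, 0.72, as within replicates 2 and 3, 0.71. The other AEN differences were 0.67 for Wnt1_KP6 against control and -0.05 for Wnt1_KP6 against Wnt1 within replicate 1, and 1.25 and 0.54 within replicates 2 and 3. For Wnt1_KP6 against control AEN passed the threshold with the replicate block (adjusted p 0.0208).

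The other 7 genes of this group passed the test in no comparison. ZMAT3, an RNA-binding zinc finger protein, had 15.6, 14.5 and 16.9 CPM labelled Wnt1_KP6, 15.2, 17.9 and 15.9 CPM labelled Wnt1, and 22.2, 19.3 and 17.4 CPM labelled control. It was the member lower in every library labelled Wnt1_KP6 than in every control library, at -0.32 ± 0.13 (adjusted p 0.251), and differed by -0.27 ± 0.12 for Wnt1 against control (adjusted p 0.461). These were -0.50 and -0.55 within replicate 1 and -0.22 and -0.12 within replicates 2 and 3. TP53I3, a quinone oxidoreductase linked to oxidative stress, had 23.6, 59.7 and 62.9 CPM labelled Wnt1_KP6, 24.1, 63.2 and 64.1 CPM labelled Wnt1, and 22.7, 92.2 and 98.5 CPM labelled control. Replicate 1 was nearly level across the groups, while in replicates 2 and 3 both plasmid labels lay below control, by -0.64 and -0.58 on the log2 scale. PERP, a membrane protein of desmosomes, had 18.3, 11.9 and 10.1 CPM labelled Wnt1_KP6, 19.2, 9.74 and 9.14 CPM labelled Wnt1, and 16.0, 16.9 and 13.9 CPM labelled control. Both plasmid labels were above control within replicate 1, by 0.19 for Wnt1_KP6 and 0.26 for Wnt1, and differed from control by -0.48 and -0.69 within replicates 2 and 3. The remaining members of the group, TP53INP1, PIDD1, PHLDA3 and TRIAP1, averaged between 8.41 and 21.6 CPM in every group, and their fitted differences lay between -0.28 and 0.31. PHLDA3 was higher in every library labelled Wnt1 than in every control library, by 0.72 within replicate 1 and by 0.11 within replicates 2 and 3. Of its exon bases, 19.1% are shared with another annotated gene on the same strand. TP53INP1, an autophagy and death regulator, differed from control by -0.55 for Wnt1_KP6 and -0.78 for Wnt1 within replicate 1, and by 0.43 and 0.63 within replicates 2 and 3.

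Of the genes for DNA repair and nucleotide supply, POLH, the polymerase that copies past ultraviolet lesions, had 27.9, 32.6 and 34.5 CPM labelled Wnt1_KP6, 24.4, 28.8 and 27.6 CPM labelled Wnt1, and 27.1, 49.9 and 45.6 CPM labelled control. Replicates 2 and 3 labelled control were the highest libraries, and control replicate 1 lay among the others. POLH differed by -0.60 ± 0.21 for Wnt1 against control (adjusted p 0.323; -0.15 within replicate 1 and -0.75 within replicates 2 and 3) and by -0.37 ± 0.21 for Wnt1_KP6 against control (adjusted p 0.431; 0.04 and -0.51). XPC and DDB2, which recognise damaged bases, and RRM2B, a ribonucleotide reductase subunit, had fitted differences between -0.21 and 0.20 in all comparisons. For Wnt1_KP6 against control RRM2B differed by -0.41 within replicate 1 and by 0.49 within replicates 2 and 3. DDB2, the searched member with an exact match to the full response element near its start, averaged 22.6, 22.2 and 23.1 CPM with the Wnt1_KP6, Wnt1 and control labels (SD 6.04, 5.84 and 5.47, n = 3 each).

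Among the metabolic members, TIGAR, a phosphatase that diverts glucose to the pentose phosphate pathway, had 14.5, 19.4 and 21.0 CPM labelled Wnt1_KP6, 12.6, 13.6 and 13.7 CPM labelled Wnt1, and 14.9, 15.1 and 11.1 CPM labelled control. Replicates 2 and 3 labelled Wnt1_KP6 were the highest, and all 3 libraries of that label lay above those labelled Wnt1. TIGAR differed by 0.46 ± 0.17 for Wnt1_KP6 against Wnt1 (adjusted p 1.0; 0.21 within replicate 1 and 0.56 within replicates 2 and 3). Of its exon bases, 42.6% are shared with another annotated gene on the same strand, so its count is uncertain. FDXR, which passes electrons to mitochondrial cytochromes, averaged 18.8, 20.1 and 19.0 CPM with the Wnt1_KP6, Wnt1 and control labels, and SESN1, an antioxidant sestrin, 6.42, 6.48 and 7.51 CPM.

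EPHA2, a receptor tyrosine kinase for ephrins that p53 can induce, gave the highest single values of the members by CPM. It had 177, 554 and 533 CPM labelled Wnt1_KP6, 181, 191 and 200.5 CPM labelled Wnt1, and 115, 173 and 198 CPM labelled control. Replicates 2 and 3 labelled Wnt1_KP6 stood apart from the other 7 libraries, among which the 3 labels overlapped. EPHA2 differed by 1.14 ± 0.39 for Wnt1_KP6 against Wnt1 (adjusted p 1.0), by 1.38 ± 0.39 for Wnt1_KP6 against control (adjusted p 0.155) and by 0.24 ± 0.38 for Wnt1 against control (adjusted p 0.884). Within replicate 1 the difference between Wnt1_KP6 and Wnt1 was -0.04, and within replicates 2 and 3 it averaged 1.47. For Wnt1_KP6 against control these were 0.62 and 1.56, and for Wnt1 against control 0.65 and 0.08.

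**Figure D3:**
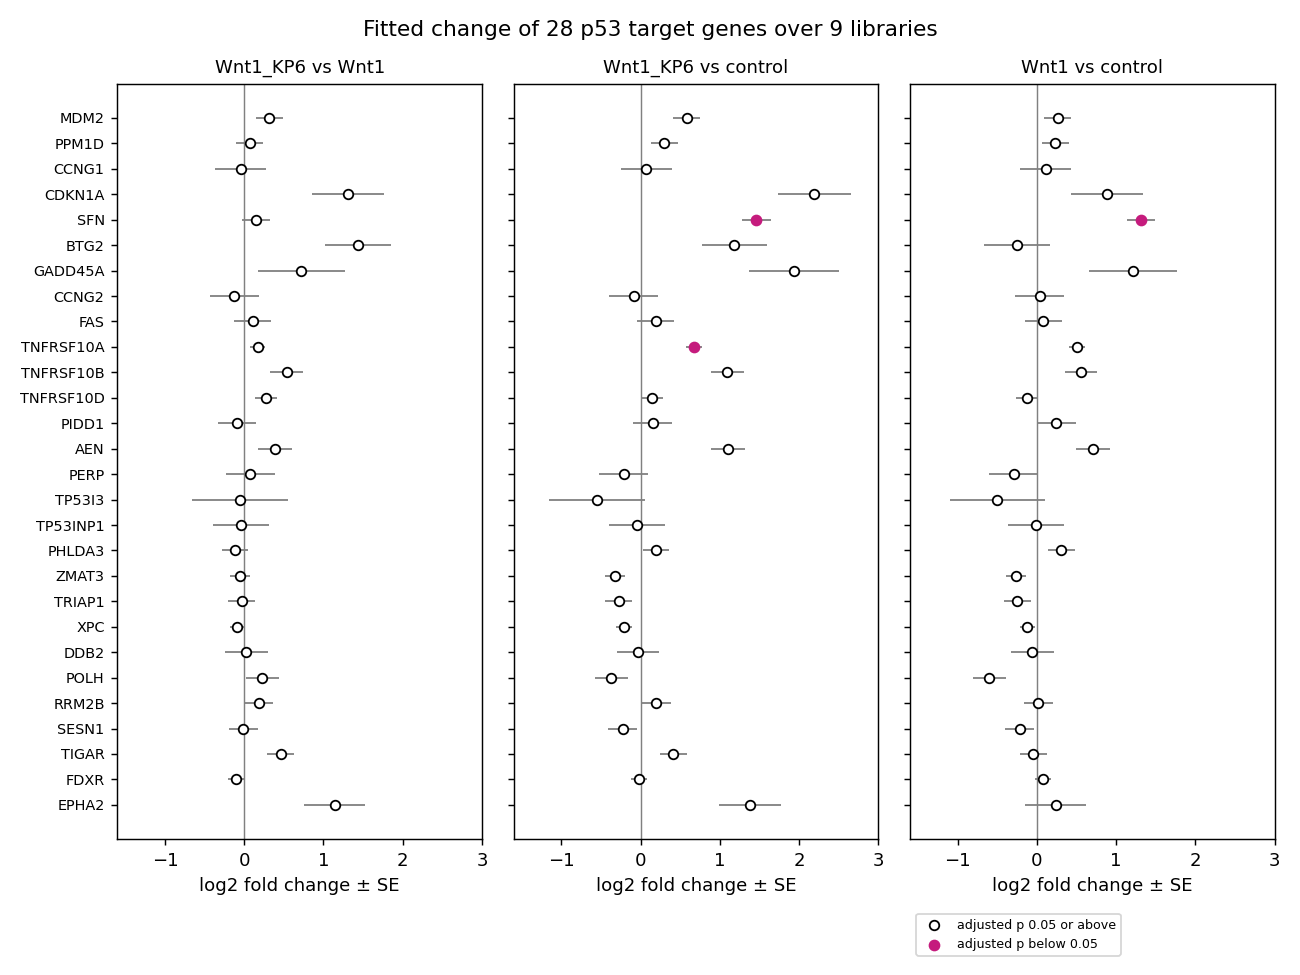
Fitted log2 fold change (horizontal axis) with its SE over all 9 libraries for 28 p53 target genes (rows) in the 3 comparisons; filled points have an adjusted p below 0.05. SFN is filled in both comparisons with control and TNFRSF10A in Wnt1_KP6 against control, and the left panel has no filled point.

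Over the 28 tested members, the call was made for 2 in Wnt1_KP6 against control, beside 0.228% of all genes, for 0 in Wnt1_KP6 against Wnt1, beside 0.0% of all genes, and for 1 in Wnt1 against control, beside 0.122% of all genes. These comparisons share libraries in pairs and are not independent. At an unadjusted p under 0.05, edgeR listed 11, 5 and 5 members in that order of comparisons, beside 15.8%, 2.76% and 11.2% of all genes, and DESeq2 called 8, 0 and 2, beside 5.35%, 0.153% and 2.31%. With the replicate block edgeR called 4, 0 and 1, beside 1.13%, 0.0% and 0.722%. The groups did not overlap for 6 members in Wnt1_KP6 against control, 5 of them higher, beside 16.5% of all genes (8.74% higher). They did not overlap for 3 in Wnt1_KP6 against Wnt1 (BTG2, TIGAR and TNFRSF10A, all higher), beside 5.81% (2.87% higher), and for 7 in Wnt1 against control, all higher, beside 16.5% (8.67% higher). The median fitted difference of the members was 0.17, 0.09 and 0.06, against -0.01, 0.00 and -0.00 over all genes tested. Within replicate 1 the medians of the members were 0.02, -0.01 and -0.08, and within replicates 2 and 3 they were 0.39, 0.17 and 0.15. By role, the 5 arrest genes had medians of 1.46, 0.72 and 0.88, with 0.24, -0.04 and 0.23 within replicate 1. The medians of the 8 apoptosis genes were -0.13, -0.05 and -0.12 and those of the 4 repair genes -0.12, 0.10 and -0.09. The 4 death receptor genes had medians of 0.43, 0.22 and 0.29, with 0.20, 0.00 and 0.23 within replicate 1. For the 3 feedback genes they were 0.30, 0.07 and 0.23, with -0.20, 0.05 and -0.18 within replicate 1, and for the 3 metabolic genes -0.02, -0.01 and -0.05.

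The number of members called depended on replicate 1. Replicates 2 and 3 were chosen with earlier results of these data known, and the labels do not state whether they were separate cultures. Their fit assumes that they were and has little residual freedom, so its small p-values may rest on technical spread. Over all libraries, no member passed the test between the Wnt1_KP6 and Wnt1 labels. With replicates 2 and 3 alone, edgeR called 20 members in Wnt1_KP6 against control, 15 higher and 5 lower (PERP, POLH, TP53I3, TRIAP1 and XPC), beside 40.6% of all genes, 21.1% higher and 19.5% lower. In Wnt1_KP6 against Wnt1 the same fit called 9, all higher, beside 8.62% of all genes, 6.06% higher and 2.56% lower. These were BTG2 (adjusted p 0.000171), EPHA2 (3.12e-09), CDKN1A (3.56e-09), TIGAR (0.0165), TNFRSF10B (2.82e-07), TNFRSF10D (0.00701), MDM2 (0.00244), AEN (0.000242) and GADD45A (2.82e-07). In Wnt1 against control it called 14, 10 higher and 4 lower (PERP, POLH, TNFRSF10D and TP53I3), beside 31.6% of all genes, 16.3% higher and 15.3% lower. Leaving out only replicate 1 labelled Wnt1_KP6 gave 3 calls for Wnt1_KP6 against Wnt1, beside 1.61% of all genes: CDKN1A at 1.71 (adjusted p 0.0071), EPHA2 at 1.51 (0.00643) and BTG2 at 1.77 (0.0369). The same omission gave 9 calls in Wnt1_KP6 against control, all higher, beside 5.2% of all genes. Leaving out control replicate 1 gave 8 calls in that comparison, 7 of them higher, beside 9.03%, and 4 in Wnt1 against control, 3 of them higher, beside 6.62%.

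Members, like genes at large, differed between replicate 1 and the others. Relative to the mean of replicates 2 and 3, TP53I3 in replicate 1 differed by -1.38, -1.40 and -2.07 (log2 CPM) in the Wnt1_KP6, Wnt1 and control groups, GADD45A by -2.18, -0.96 and -1.02, and DDB2 by -0.71, -0.65 and -0.62. CCNG1 differed by 0.49, 0.57 and 1.11 and CCNG2 by 0.67, 0.51 and 0.93. CDKN1A changed sign between the groups, at -1.91, -0.30 and 0.73. In all 3 groups, 4 of 28 members were higher and 8 lower in replicate 1, beside 2943 and 2854 of 13153 genes. A steady direction was thus about as common among all genes as among the members. The median size of the difference was 0.463, 0.235 and 0.478 over the members, against 0.249, 0.208 and 0.29 over all genes. Control replicate 1 also held the highest fibroblast marker sum, 36.86 CPM. In control replicates 1 to 3, COL1A1 had 23.7, 20.8 and 23.4 CPM, COL1A2 6.93, 0.07 and 0.04 CPM and COL3A1 3.45, 0.0 and 0.12 CPM. DCN had 1.34 and PDGFRA 0.84 CPM in control replicate 1, and both had 0.0 CPM in the other control replicates. The part of these markers, and of the lower mitochondrial share of replicate 1, in the replicate 1 differences was not tested.

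**Figure D4:**
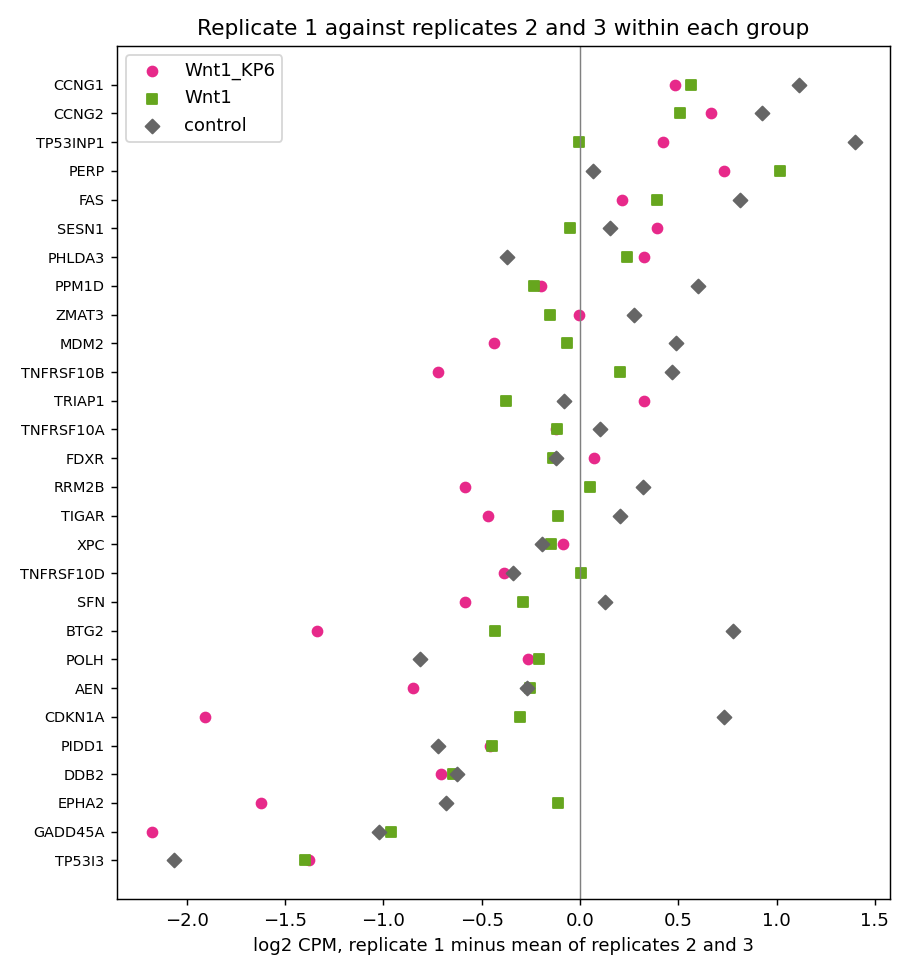
Log2 CPM of replicate 1 minus the mean of replicates 2 and 3 (horizontal axis) for 28 p53 target genes (rows) within the Wnt1_KP6, Wnt1 and control groups. TP53I3, at -1.38, -1.40 and -2.07, lies furthest below 0 over the 3 groups, and CCNG1 and CCNG2 lie above 0 in all groups.

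Of 23 regulators of p53, 22 were tested and 0 were called by edgeR in any comparison. MDM4, the relative of MDM2 that masks the p53 activation domain, had the smallest p of them against control. It had 60.6, 59.5 and 57.8 CPM labelled Wnt1_KP6, 57.7, 56.0 and 55.7 CPM labelled Wnt1, and 50.1, 42.3 and 38.9 CPM labelled control. Both plasmid labels lay above all control libraries, with differences of 0.44 ± 0.10 for Wnt1_KP6 (adjusted p 0.0984) and 0.37 ± 0.10 for Wnt1 (adjusted p 0.237), or 0.27 and 0.20 within replicate 1 and 0.53 and 0.46 within replicates 2 and 3. EP300, CREBBP and KAT5 encode acetyltransferases and SIRT1 a deacetylase that act on p53. For Wnt1_KP6 against control, EP300 differed by 0.33 ± 0.10, KAT5 by 0.35 ± 0.12 and SIRT1 by 0.52 ± 0.22 (adjusted p 0.182, 0.209 and 0.296). Within replicate 1 these differences were 0.06, 0.04 and -0.33, and within replicates 2 and 3 they averaged 0.46, 0.50 and 0.92. For Wnt1 against control, the histone chaperone gene DAXX differed by 0.28 ± 0.09, CREBBP by 0.36 ± 0.14 and EP300 by 0.24 ± 0.10 (adjusted p 0.299, 0.381 and 0.447), with 0.19, 0.14 and -0.02 within replicate 1 and 0.32, 0.45 and 0.37 within replicates 2 and 3. For Wnt1_KP6 against Wnt1, SIRT1 differed by 0.53 ± 0.22, KAT5 by 0.15 ± 0.12, the SUMO ligase gene PIAS1 by -0.12 ± 0.10 and the checkpoint kinase gene CHEK1 by 0.11 ± 0.10, all with an adjusted p of 1.0; within replicate 1 the differences were 0.07, 0.03, -0.12 and 0.01, and within replicates 2 and 3 they averaged 0.70, 0.21, -0.13 and 0.15.

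Of 32 further p53 targets that are not among the 29, 28 were tested and 0 were called by edgeR over all libraries. RAP2B, a small GTPase, had 75.6, 81.4 and 76.6 CPM labelled Wnt1_KP6, 80.0, 66.02 and 66.5 CPM labelled Wnt1, and 54.3, 48.1 and 52.1 CPM labelled control, and differed by 0.60 ± 0.10 for Wnt1_KP6 against control (adjusted p 0.0584; 0.0389 with the replicate block), by 0.48 within replicate 1 and by 0.66 within replicates 2 and 3. PMAIP1, which encodes the BH3-only protein NOXA, had 138, 113 and 126 CPM labelled Wnt1_KP6, 150, 63.7 and 63.0 CPM labelled Wnt1, and 64.6, 47.5 and 39.3 CPM labelled control. PMAIP1 was highest in replicate 1 of both plasmid labels, and it differed by 1.32 ± 0.34 for Wnt1_KP6 against control (adjusted p 0.133; 0.04 with the replicate block), by 1.09 within replicate 1 and by 1.47 within replicates 2 and 3. BBC3, which encodes the BH3-only protein PUMA, had 10.6, 14.2 and 13.8 CPM labelled Wnt1_KP6, 8.02, 8.55 and 8.05 CPM labelled Wnt1, and 7.60, 5.76 and 8.78 CPM labelled control. PLK3, a stress-responsive polo-like kinase, had 17.8, 89.1 and 75.7 CPM labelled Wnt1_KP6, 18.5, 16.2 and 16.7 CPM labelled Wnt1, and 12.6, 8.91 and 11.2 CPM labelled control. BBC3 lay above all other libraries in each replicate labelled Wnt1_KP6, while PLK3 did so in replicates 2 and 3. For Wnt1_KP6 against Wnt1, BBC3 differed by 0.65 ± 0.18 and PLK3 by 1.83 ± 0.49 (adjusted p 1.0 for both), with BBC3 at 0.40 and PLK3 at -0.05 within replicate 1, and at 0.75 and 2.32 within replicates 2 and 3. In that comparison SERTAD1, a regulator of cyclin D and CDK4, differed by 1.16 ± 0.36 and the immediate early gene IER5 by 0.82 ± 0.27 (adjusted p 1.0 for both). Within replicate 1 SERTAD1 differed by 0.20 and IER5 by -0.22, and within replicates 2 and 3 by 1.46 and 1.32. For Wnt1_KP6 against control, PLK3 differed by 2.48 ± 0.50 and BBC3 by 0.81 ± 0.18 (adjusted p 0.0788 and 0.089), with 0.49 and 0.48 within replicate 1 and 3.03 and 0.97 within replicates 2 and 3. For Wnt1 against control, RAP2B differed by 0.46 ± 0.10 and PMAIP1 by 0.87 ± 0.34 (adjusted p 0.142 and 0.386), the adhesion gene NINJ1 by 0.36 ± 0.13 (adjusted p 0.353) and FBXO22, a substrate receptor of a ubiquitin ligase, by -0.26 ± 0.09 (adjusted p 0.306). Within replicate 1 these were 0.56, 1.21, 0.72 and -0.34, and within replicates 2 and 3 they averaged 0.40, 0.55, 0.17 and -0.22. With replicates 2 and 3 alone, these further targets gave 14 calls higher and 2 lower for Wnt1_KP6 against control, beside 21.1% and 19.5% of all genes. They gave 9 and 0 for Wnt1_KP6 against Wnt1, beside 6.06% and 2.56%, and 8 and 5 of 28 for Wnt1 against control, beside 16.3% and 15.3%.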

How the data were processed

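Total RNA of HKC-8 cells was enriched with oligo(dT) and made into NEBNext Ultra libraries for an Illumina NovaSeq, per the labels' protocols; whether strand is kept is not stated there. The submitters' processing notes name fastp 0.18.0, Bowtie2 2.2.8, HISAT2, StringTie 1.3.1, RSEM and the build hg38, without their roles. The authors deposited, per the file headers, an expected count and an FPKM value per gene and library; 87.587% of the counts were whole within 0.005. Expected counts were rounded and tested in edgeR 4.0.16 (R 4.3.3) by the robust quasi-likelihood test with TMM scaling, filterByExpr (minimum count 10, minimum total 15), 3 group means over 9 libraries, two-sided, adjusted by Benjamini-Hochberg over 13153 genes at 0.05. CPM are on TMM-scaled library sizes; differences within a replicate number use log2 CPM with a prior count of 2. The SE is the log2 fold change divided by the square root of F. FPKM served only to compare levels between genes and in an alternative fit.

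Replicate numbers come from the titles. Deviations from the group mean correlated in all 9 pairs of same-numbered libraries (0.11 to 0.672), and the numbers were taken to pair the libraries. With replicate 1 apart in every group, replicates 2 and 3 deviate the other way whatever their pairing. Their correlations therefore cannot show that they are paired. Pairs of replicates 2 and 3 with unlike numbers also correlated (0.154 to 0.398, with control replicate 3 nearer to Wnt1_KP6 replicate 2, 0.248, than to replicate 3, 0.11), so the numbers mainly set replicate 1 apart, and the fit with the number as a block is an alternative. No pair of replicates agreed within sampling noise (lowest chi-square per degree of freedom 3.148). Other alternatives were DESeq2 1.42.0, its median-of-ratios scaling, no filter, each library left out, replicates 2 and 3 alone, and limma 3.58.1 on log2(FPKM + 1) and log2(FPKM + 0.1). The edgeR fit was also run on simulated counts drawn without a shift of replicate 1. That run cannot show how the fit behaves with the replicate 1 shift of these data.

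The members, lists and the choice of replicates 2 and 3 were made with earlier results of these data known. Genes named with every library's value are CDKN1A, MDM2, members called in any comparison and, per comparison, the 8 members with the smallest p; of the regulator and further target lists, the 4 with the smallest p per comparison are named. TP53I3, PERP and the genes set out by replicate were singled out after their values were seen. Coordinates are from GENCODE 29 (GRCh38), and motifs were searched on both strands of the RefSeq windows.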

Additional observations from a re-analysis of the deposited data

How the results depend on the processing

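Counts of genes called over the whole table and of members called depended on the test and on replicate 1. For Wnt1_KP6 against control (30 genes and 2 members), DESeq2 gave 674 and 8, replicates 2 and 3 alone 5293 and 20, limma on log2(FPKM + 1) 11 and 1 and on log2(FPKM + 0.1) 19 and 1. For Wnt1_KP6 against Wnt1 (0 genes and 0 members by edgeR, 363 and 5 at an unadjusted p under 0.05), DESeq2 gave 20 genes and 0 members and replicates 2 and 3 alone 1124 and 9. For Wnt1 against control (16 genes and 1 member), DESeq2 gave 302 and 2 and replicates 2 and 3 alone 4115 and 14. With the replicate number as a block the counts were 149 genes and 4 members (AEN, GADD45A, SFN and TNFRSF10A), 0 and 0, and 95 and 1 in that order of comparisons; the block changed no other call of a member. Leaving out single libraries gave 0 to 1198 genes and 0 to 9 members for Wnt1_KP6 against control, 0 to 214 and 0 to 3 for Wnt1_KP6 against Wnt1, and 0 to 879 and 0 to 4 for Wnt1 against control; the highest counts came without a replicate 1 library. The cause of these shifts was not tested. Median-of-ratios scaling and no filter kept every count within 1.5 times. Of 432 recomputed fold changes of named members, 366 kept their direction and side of the threshold, 45 passed it newly, 21 lost it and 0 changed direction. The settings reuse most of the same libraries, and most genes were named for a small p in them, so a kept direction adds little. No setting took replicate 1 alone. There some named genes kept their sign and others did not, such as TNFRSF10B at -0.11 for Wnt1_KP6 against Wnt1. CDKN1A in Wnt1_KP6 against Wnt1 differed by 1.31 with an SE of 0.45 (unadjusted p 0.0184) and did not pass adjustment over 13153 genes. Residual freedom in the fit of replicates 2 and 3 is small, and it assumes that both represent separate samples.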
